A study of Mus musculus with 2 samples.

Results

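Asic1, Asic2, Asic3 and Asic4, which encode subunits of acid-sensing ion channels, and Gpr65, which encodes a proton-sensing receptor of the G-protein-coupled family, were followed across the cell types of the mouse dorsal root ganglion. These 5 genes were chosen by name, matched by symbol among the 31253 genes of the deposited tables, and all 5 were found. The study profiled dissociated lumbar (L4-5) ganglia of wildtype mice aged 8 weeks, all from the group treated with acetone, ether and water (AEW), a way of drying the skin, with 10x Genomics 3' single-cell libraries. Its 2 libraries, replicates 1 and 2, belong to the same group and no untreated group was analysed here, so every comparison below is between cell types. Nothing in the labels says that the replicates came from separate animals. The p-values measure only how far the differences between cell types vary between these libraries, and that spread may be technical.

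Acid-sensing ion channels are sodium-permeable channels of the epithelial sodium channel family that open when the fluid outside the cell turns acid. They are trimers, and the subunits they combine set how sensitive they are and how fast they close. In sensory neurons they are known as sensors of the acid that builds up in inflamed, ischaemic or exercised tissue. Proton-sensing receptors such as Gpr65 (also called TDAG8) take up protons on extracellular histidines and signal through G proteins, and Gpr65 is known mainly from immune cells, where it raises cyclic AMP.

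The libraries held 113251556 and 102347251 UMIs (counted transcript molecules) in 8818 and 11767 barcodes. Filters kept 7774 cells (median 4991 UMIs) in replicate 1 and 10270 cells (median 4102.5 UMIs) in replicate 2, and 17 kept barcodes occurred in both. The labels call the cell type Neuron, but clusters named as neuronal held 690 and 1268 cells, which gave 61.8% and 55.7% of all UMIs in replicates 1 and 2. Of these, 604 and 813 fell in 8 named classes: NF (neurofilament-rich; Pvalb, Ntrk2), PEP-A and PEP-C (peptidergic neurons of presumed A- and C-fibre type; Smr2 and Bmpr1b, Tac1 and Adcyap1), TRPM8 (cold-sensing), TH (C-fibre touch neurons), NP1 (Mrgprd), NP2 (Mrgpra3) and NP3 (Nppb, Sst), the NP2 and NP3 classes being known for itch. Clusters that were too shallow or had unclear markers stayed unnamed, 1517 and 3235 barcodes outside the neuronal clusters and 86 and 455 within them. Among those outside, shallow clusters of 1135 and 341 and of 124 and 1684 barcodes scored highest for neurons. Their neuron markers summed to 113 and 135 and to 130 and 105 UMIs per 10000, against 124 and 132 in all neurons. Satellite glia and macrophages of the 2 libraries fell mostly in separate clusters, and the TH class of replicate 2 includes 49 shallow cells led by immune genes (Cd74, H2-Aa). None of the 5 genes was used for clustering. Levels are UMIs of the gene per 10000 UMIs of all genes in a class. They compare a gene between classes, and genes with each other only roughly, since 3' counting depends on how each transcript ends.

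Asic1 (ENSMUSG00000023017) lies on the plus strand of GRCm38 at chr15:99670368-99701130. Asic2 (ENSMUSG00000020704) spans 1088289 bases of the minus strand at chr11:80880169-81968457, and its 2 coding transcripts start at separate promoters but end at the same base, so 3' counts cannot tell them apart. Another gene on the same strand, 1700071K01Rik, and 5 on the opposite strand overlap it. Asic3 (ENSMUSG00000038276) fills 4444 bases at chr5:24413392-24417835, plus strand. Asic4 (ENSMUSG00000033007), at chr1:75450436-75474343, and Gpr65 (ENSMUSG00000021886), at chr12:98268635-98276644, both on the plus strand, each overlap an opposite-strand gene, Gm37264 and Gm47566. No 31-base word from the last 500 bases of any member's transcripts occurs in the transcripts of another gene.

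Asic1, Asic3 and Gpr65 peaked in different classes, TRPM8 neurons, PEP-A neurons and macrophages, although some NF and PEP-A neurons held both Asic1 and Asic3. The promoters of these genes are shown for that reason. Each runs from 250 bases before to 50 bases after a transcript start, 5′ to 3′ on the gene's strand, as RefSeq gives it for GRCm38.p6, and that of Asic1 belongs to its internal start. Capitals mark a TATA box (TATAAA), the core of a site for PU.1 (GAGGAA), a factor of myeloid cells, or the core of a RUNX site (TGTGGT), sought on both strands; TTCCTC and TTTATA are the first 2 read from the other strand.
Asic1, chr15:99691974-99692273, plus strand: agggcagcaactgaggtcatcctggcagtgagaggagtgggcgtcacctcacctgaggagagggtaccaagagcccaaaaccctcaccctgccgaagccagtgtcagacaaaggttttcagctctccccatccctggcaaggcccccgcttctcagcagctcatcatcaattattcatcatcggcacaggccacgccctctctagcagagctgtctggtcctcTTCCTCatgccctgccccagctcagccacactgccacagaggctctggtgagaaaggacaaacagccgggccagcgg
Asic3, chr5:24413201-24413500, plus strand: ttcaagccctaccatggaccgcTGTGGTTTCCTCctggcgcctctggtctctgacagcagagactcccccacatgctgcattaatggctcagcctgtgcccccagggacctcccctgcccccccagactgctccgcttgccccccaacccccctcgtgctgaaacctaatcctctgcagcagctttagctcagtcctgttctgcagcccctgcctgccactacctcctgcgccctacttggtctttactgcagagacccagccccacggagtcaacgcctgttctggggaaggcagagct
Gpr65, chr12:98268385-98268684, plus strand: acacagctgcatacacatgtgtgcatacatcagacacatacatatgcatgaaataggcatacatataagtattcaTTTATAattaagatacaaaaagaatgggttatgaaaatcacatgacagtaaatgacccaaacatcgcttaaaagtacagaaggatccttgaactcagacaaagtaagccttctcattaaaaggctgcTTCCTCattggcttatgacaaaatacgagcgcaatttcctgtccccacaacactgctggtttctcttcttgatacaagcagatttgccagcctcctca
All 3 windows held the PU.1 core, which 28.3% of the 32851 promoters in the table hold. In the Asic3 window a RUNX core, found in 16.8% of promoters, directly preceded it. In the Gpr65 window the letters of a TATA box, found in 13.6%, lay upstream of it. They were on the opposite strand, at -175 from the transcript start. G and C made up 59.7% of the Asic1 window, 62.0% of the Asic3 window and 38.3% of the Gpr65 window, against a median of 52.7% over all promoters.

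Asic1, the subunit of the fast proton-gated sodium current shared by brain and sensory neurons, was highest in cold-sensing TRPM8 neurons, at 0.952 and 0.810 UMIs per 10000 in replicates 1 and 2. NF neurons followed with 0.711 and 0.496, TH neurons with 0.305 and 0.329, PEP-A neurons with 0.192 and 0.152 and PEP-C neurons with 0.150 and 0.0525. These 5 classes kept that order without overlap between neighbours, although an NF cluster given below lay above TRPM8 neurons in both libraries. NP2, NP1 and NP3 neurons lay far below, between 0 and 0.0191; NP1 overlapped each of the others, while NP2 lay above NP3 in both libraries on 2 to 12 UMIs a library against 0 to 2. In NP3 neurons 2 UMIs were counted in 66 cells, against 1603 in 1351 cells of the other named classes, whose level was 42.4 times that of NP3 (exact 95% interval 11.7 to 351, counting error only).

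Asic2, whose product forms channels with the other subunits and modulates their response, was the most evenly spread of the 3 abundant genes. TH neurons had 1.14 and 1.26 UMIs per 10000, NP1 neurons 1.03 and 1.24, NF neurons 0.585 and 1.30, PEP-A neurons 0.759 and 0.828, NP3 neurons 0.756 and 0.748 and NP2 neurons 0.703 and 0.714. The NF libraries spanned the values of the other 5, and TH and NP1 neurons overlapped. PEP-C neurons, with 0.416 and 0.428, and TRPM8 neurons, with 0.128 and 0.0759, were lower than all of them in both libraries.

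Asic3, the subunit most tied to sensory neurons and to the sustained current of mild acidity, peaked in PEP-A neurons at 1.13 and 1.33 UMIs per 10000. PEP-C neurons had 0.510 and 0.744 and NF neurons 0.583 and 0.622, which overlapped. TRPM8 neurons reached 0.137 and 0.0759, and TH, NP1, NP2 and NP3 neurons stayed between 0.00401 and 0.0299. Of the 37 Asic3 UMIs of NP1 neurons in replicate 2, 24 came from a cluster of 33 cells with Malat1 and Meg3, which are nuclear RNAs, among its leading genes.

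**Figure D1:**
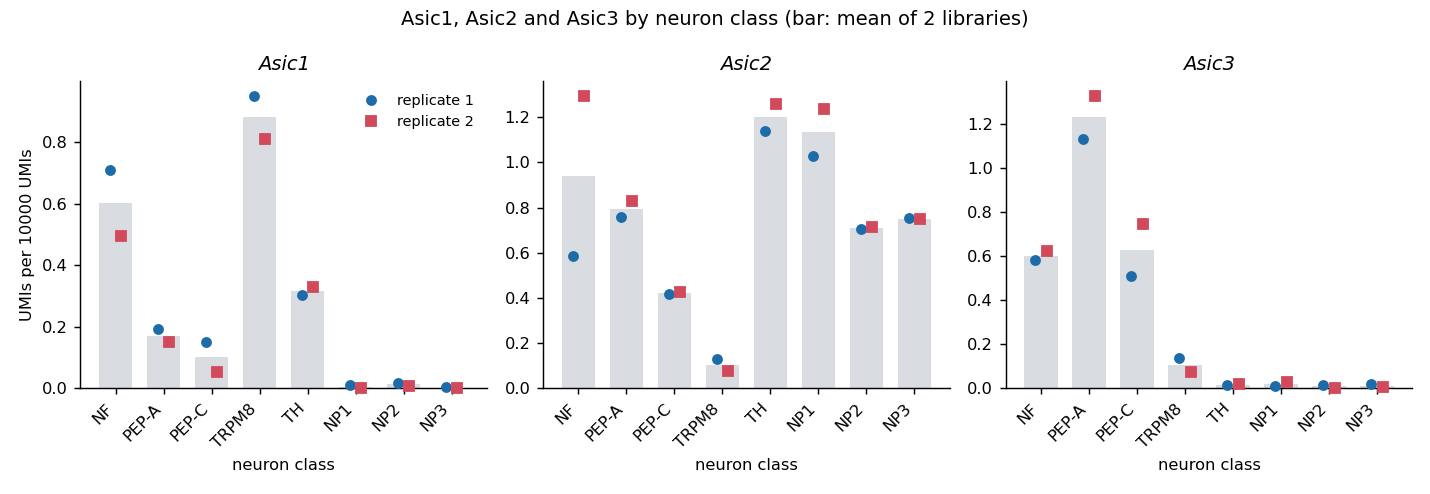
UMIs per 10000 UMIs of Asic1, Asic2 and Asic3 (vertical axes, linear) in the 8 neuron classes. Points are the 2 libraries and bars their mean: Asic1 was highest in TRPM8 neurons (0.952 and 0.810), Asic2 lowest in them (0.128 and 0.0759), and Asic3 highest in PEP-A neurons (1.13 and 1.33).

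Asic4, whose product is not known to form a proton-gated channel by itself, was rarely detected. It gave 7 UMIs in all, 6 of them in neurons, and 5 of these in 4 of the 68 PEP-A cells. The other 1349 named neurons had none. With 3 UMIs over that group taken as its limit, the PEP-A level was 29.8-fold higher. The exact 95% lower bound of that ratio was 16.4, for counting error only. With so few counts Asic4 passed no filter and was not tested.

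Each neuron class was then set against the mean of the other 7 on the log2 scale, with edgeR's quasi-likelihood test over 13048 genes and adjusted p under 0.05 as the call. The share of all genes called was 45.7% for NF (25.7% higher, 19.9% lower), 24.7% for PEP-A (16.7% and 8.04%), 27.4% for PEP-C (18.2% and 9.25%) and 30.4% for TRPM8 (16.8% and 13.6%). It was 35.3% for TH (20.5% and 14.8%), 41.4% for NP1 (22.7% and 18.6%), 31.3% for NP2 (17.4% and 13.9%) and 34.9% for NP3 (17.2% and 17.7%), so a call alone says little about a gene. Of the 24 tests of Asic1, Asic2 and Asic3, 19 were called. Gpr65 and Asic4 did not pass the filter on low counts among neurons.

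TRPM8 neurons differed in opposite directions for Asic1, which was higher by 3.91 ± 0.25 (log2 ± SE, edgeR adjusted p = 4.45e-09), and Asic2, which was lower (-3.0 ± 0.26, edgeR adjusted p = 2.24e-07). Asic3 there was not called (0.31 ± 0.35). NF neurons were higher for all 3 genes, by 3.37 for Asic1, 0.51 for Asic2 and 3.11 for Asic3. In replicate 1, however, their Asic2 level (0.585) was below those of TH, NP1, PEP-A, NP3 and NP2 neurons. PEP-A neurons were higher for Asic3 (4.24 ± 0.19) and Asic1 (1.25 ± 0.33), whereas PEP-C neurons were higher for Asic3 (3.18 ± 0.18) and lower for Asic2 (-0.67 ± 0.16), with Asic1 not called. PEP-A neurons nevertheless had less Asic1 than TRPM8, NF and TH neurons in both libraries. They were called higher because the mean of the logs counts the low NP classes. TH neurons were higher for Asic1 (2.40) and Asic2 (1.05) and lower for Asic3 (-2.78).
The NP classes shared a pattern. NP1 was lower for Asic1 (-3.78) and Asic3 (-2.25) and higher for Asic2 (1.18 ± 0.14), and NP2 and NP3 were lower for Asic1 (-2.56 and -4.98) and Asic3 (-2.89 and -2.91), with Asic2 not called. The values for Asic1 and Asic3 in the NP classes rest on 1 to 37 UMIs a library, and on 0 for Asic1 in NP3 of replicate 2, so their size depends on the fit. Without replicate 1 the Asic1 difference was -8.29 in NP3, 2.22 in PEP-A, 4.97 in TRPM8 and 4.10 in NF, and that of Asic3 -4.47 in NP2 and -4.27 in NP3. When cells were assigned by marker gates instead of clusters, the Asic3 difference in NP3 turned to 0.57 and was not called. With library totals in place of composition factors 31.5% of the called genes were higher in NP1, 38.7% in NP2 and 68.9% in TRPM8, against 55.0%, 55.5% and 55.2% with those factors, and no member changed direction.

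**Figure D2:**
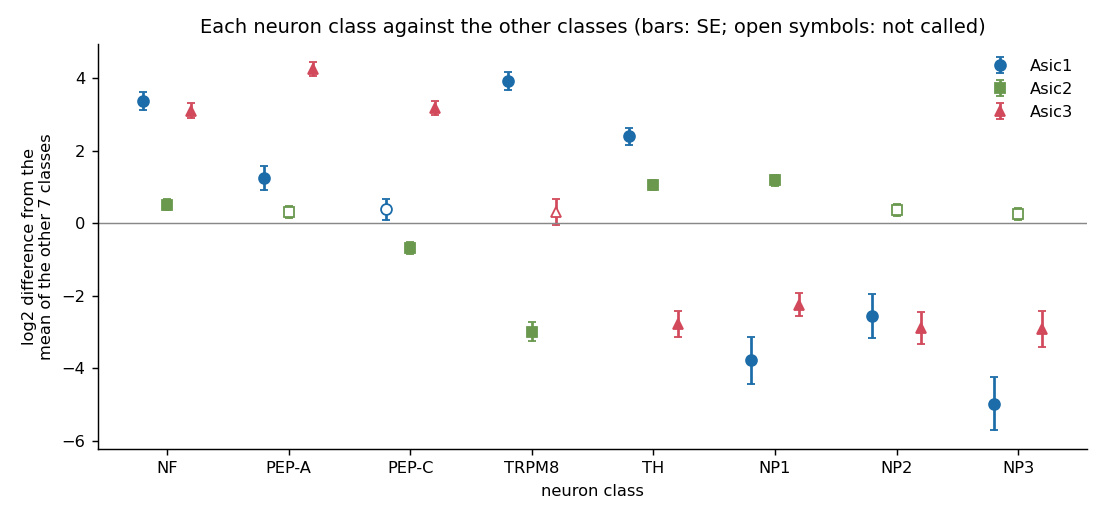
Log2 difference of each neuron class from the mean of the other 7 classes (vertical axis) for Asic1, Asic2 and Asic3. Bars are standard errors and open symbols were not called: TRPM8 neurons lie at 3.91 for Asic1 and -3.0 for Asic2, PEP-A neurons at 4.24 for Asic3.

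A-fibre classes (NF and PEP-A) were compared with the 6 C-fibre classes (PEP-C, TRPM8, TH, NP1, NP2 and NP3). Each contrast sets the mean of the log2 class levels of one side against that of the other, and 48.3% of all genes were called, 26.3% higher and 22.1% lower. The 3 tested members were all higher in A-fibre classes: Asic3 by 4.29 ± 0.17 (edgeR adjusted p = 6.65e-12), Asic1 by 2.69 ± 0.24 (edgeR adjusted p = 1.47e-07) and Asic2 by 0.49 ± 0.13 (edgeR adjusted p = 0.00519). The classes behind them overlapped, since TRPM8 neurons had more Asic1 than either A-fibre class and PEP-C neurons as much Asic3 as NF neurons. The C-fibre mean of logs counts the low NP classes, and for Asic3 also the low TH class. The Asic1 and Asic3 sizes thus do not hold for each C-fibre class. For Asic2 the A-fibre classes lay within the range of the C-fibre classes except in NF neurons of replicate 2, and the call was lost with marker gates (0.24, edgeR adjusted p = 0.0734). With replicate 1 left out the Asic1 difference was 3.69 and that of Asic2 0.79, and with replicate 2 left out that of Asic2 was 0.20.

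Peptidergic classes (PEP-C and PEP-A) were also set against the itch-associated NP2 and NP3, where 37.1% of all genes were called, 21.2% higher and 15.9% lower. Asic3 had 2051 UMIs in 395 peptidergic cells and 20 UMIs in 142 itch-associated cells, and was higher by 5.79 ± 0.29 (edgeR adjusted p = 3.16e-10). Asic1 had 324 and 16 UMIs in the same cells and was higher by 4.01 ± 0.47 (edgeR adjusted p = 3.30e-06). Every peptidergic class lay above both itch-associated classes in each library for these genes. Left without replicate 1, whose loss leaves 2 UMIs of each gene in the itch-associated classes, the differences were 7.62 and 5.87. Asic2 ran the other way (-0.42 ± 0.15, edgeR adjusted p = 0.0399), but PEP-A neurons had slightly more Asic2 than NP2 and NP3 neurons in both libraries and PEP-C neurons less, and the call was lost without the library term (-0.41, edgeR adjusted p = 0.107).

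Within the NF class the Asic genes divided between its 2 clusters. The cluster led by Pvalb, a marker of proprioceptors, had 1.07 and 1.06 Asic1 UMIs and 0.876 and 1.33 Asic3 UMIs per 10000 in its 51 and 29 cells. Its Asic1 level was above that of the TRPM8 class in both libraries (0.952 and 0.810). The cluster led by Cadps2, Kcnq3 and Ntrk2, a neurotrophin receptor gene of some touch neurons, had no Asic1 UMI in its 10 and 16 cells and 1 Asic3 UMI, while median depths were 35118 and 18044 UMIs in the Pvalb cluster and 162680 and 66310 in this one. With 3 UMIs taken as the limit over the Ntrk2 cluster, its Asic1 level was 92.7-fold lower than that of the Pvalb cluster. The exact 95% lower bound of that ratio was 75.1. Asic2 was reversed, with 0.200 and 0.356 UMIs per 10000 in the Pvalb cluster and 1.34 and 2.13 in the Ntrk2 cluster. The clusters did not overlap for any of the 3 genes, and they were formed on other genes of the same cells, so no test was made. The Ntrk2 cluster gave a larger part of the NF cells in replicate 2 than in replicate 1, beside the higher Asic2 and lower Asic1 of that class there, and its part in those differences was not tested.

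The PEP-C class also held unlike clusters. One led by Cldn9, Fgg and Tac1 had 0.885 and 1.25 Asic3 UMIs per 10000, near the PEP-A level. Another, led by Sstr2 and Avpr1a, had 0.292 and 0.445, and the one led by Dcn and Tmc3 had 0.0585 and 0.0874. Their order was the same in both libraries without overlap. Asic1 was highest in the Cldn9 cluster in replicate 1 (0.201) but in the Dcn cluster in replicate 2 (0.0983, against 0.0542 in the Cldn9 cluster), and lowest in the Sstr2 cluster in both (0.0338 and 0.0316). Asic2 varied less, from 0.354 to 0.574.

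**Figure D3:**
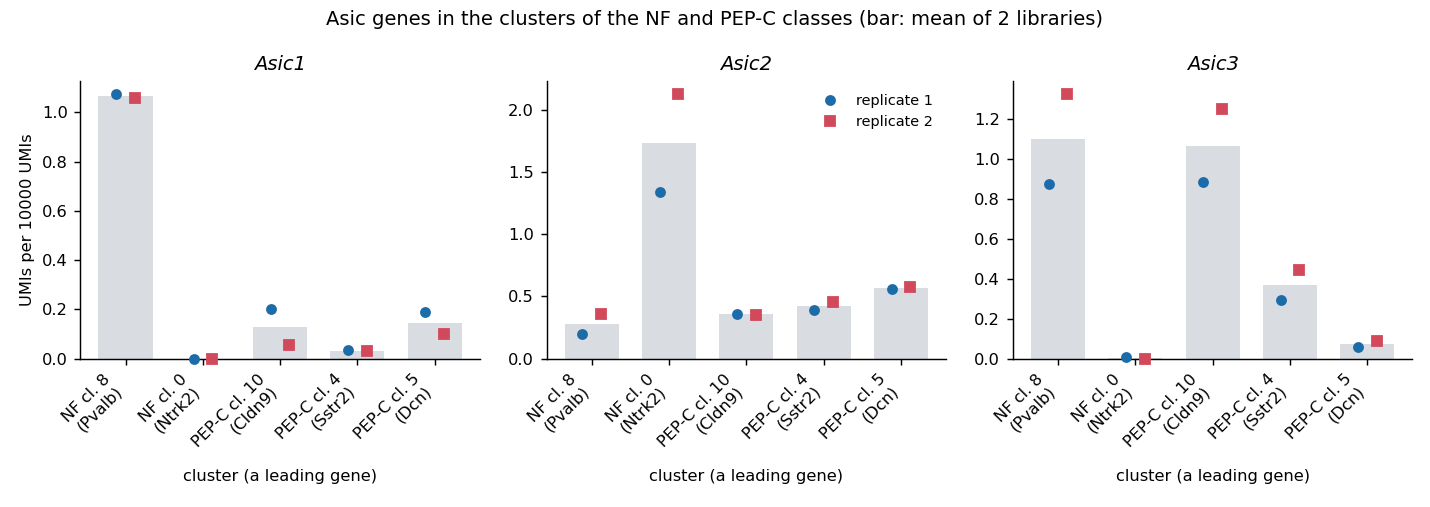
UMIs per 10000 UMIs of Asic1, Asic2 and Asic3 (vertical axes, linear) in the clusters that make up the NF and PEP-C classes, each named with a leading gene. Points are the 2 libraries and bars their mean: Asic1 and Asic3 lay in the Pvalb cluster of NF (1.07 and 1.06 for Asic1), Asic2 in the Ntrk2 cluster (1.34 and 2.13), and Asic3 was highest in the Cldn9 cluster of PEP-C (0.885 and 1.25).

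Since channels are built from subunits in the same cell, detection of pairs of members was counted. In PEP-A neurons of replicate 1, Asic3 was detected in 36 of 41 cells, and all 20 cells with Asic1 were among them; in replicate 2 it was detected in 22 of 27 cells, among them 4 of the 5 with Asic1. The products of the shares give 17.6 and 4.07 such cells. Among NF neurons 20 of 61 and 9 of 45 cells had both genes, against 16.1 and 5.69 from the product of the shares. All of them lay in the Pvalb cluster, where the products give 18.5 and 8.83. Asic3 and the heat- and acid-gated channel gene Trpv1 were found together in PEP-C neurons, where 74 of 74 and 108 of 109 cells with Asic3 also had Trpv1. In PEP-A neurons this was so for 15 of 36 and 6 of 22 cells with Asic3, and in NF neurons for 5 of 28 and 0 of 16. Trpv1 itself was in nearly all PEP-C cells, 133 of 133 and 186 of 194, so the pairing there adds little. A cell without a UMI may still express a gene.

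To set shares of cells at equal depth, neurons were thinned to 10000 UMIs, which left out between 0 and 91 cells of a class. Asic3 then had a UMI in 60.0% and 66.7% of PEP-A cells, 26.0% and 35% of PEP-C cells and 40.5% and 27.0% of NF cells, against 1.72% and 3.92% of TH cells and none of NP2 or NP3 cells (upper 95% bounds from 8.41% to 11.6%). Before thinning, PEP-A had 87.8% and 81.5%. Asic1 had a UMI in 45.7% and 57.7% of thinned TRPM8 cells and 42.9% and 27.0% of NF cells. In TH cells it was 32.8% and 30.1%, and in NP1 cells 1.29% and 0%. Asic2 had one in 63.2% and 74.8% of NP1 cells, against 8.57% and 19.2% of TRPM8 cells.

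All neurons together were set against 11 non-neuronal classes by summed counts over 13432 genes, of which 55.1% were called, 37.8% higher and 17.3% lower. That balance depended on the processing: 68.6% of the called genes were higher with edgeR's factors, 37.8% with DESeq2 size factors and 49.8% with marker gates, and the median over all genes was 0.28, -0.31 and -0.11. Neurons were higher for Asic2 by 2.85 ± 0.20 (edgeR adjusted p = 2.91e-11), for Asic3 by 1.45 ± 0.25 (edgeR adjusted p = 2.63e-05) and for Asic1 by 1.37 ± 0.20 (edgeR adjusted p = 4.08e-06), and these 3 directions and calls held under each of those settings. In levels, neurons had 0.773 and 0.892 Asic2 UMIs per 10000, against 0.0326 and 0.0812 in satellite glia, the largest non-neuronal class. They had 0.230 and 0.390 for Asic3, against 0.0906 and 0.0457 in satellite glia, 0.208 and 0.107 in non-myelinating Schwann cells and 0.201 and 0.118 in mural cells. The neurons here include the unnamed clusters. A large part of their Asic3 UMIs in replicate 2 came from an unnamed cluster led by Col1a1, with 2 and 71 cells in replicates 1 and 2. For Asic1 the levels were 0.170 and 0.171 in neurons and 0.0510 and 0.0336 in satellite glia, while B cells had 0.216 and 0.207 from 3 and 4 UMIs, above the neurons in both libraries. Either library left out gave 1.88 and 1.92 for Asic3.
Asic3 made up 19.6% and 26.8% of the Asic1, Asic2 and Asic3 UMIs of all neurons, unnamed ones included, in replicates 1 and 2. In replicate 1 it made up between 37.5% (fibroblasts) and 56.5% (non-myelinating Schwann cells) of those of each of 7 non-neuronal classes, and in replicate 2 between 24.6% and 36.4%, with overlapping 95% intervals between the classes of a library. All named non-neuronal classes together had 52.0% (95% interval 48.4 to 55.7) in replicate 1, above its neurons (18.7 to 20.5), and 30.3% (27.0 to 33.8) in replicate 2, where the interval overlapped that of its neurons (25.8 to 27.9). Thinned to 1000 UMIs, 3.33% and 3.94% of neurons had an Asic3 UMI, against 1.51% and 0.779% of satellite glia (median depths before thinning 93516 and 29876 UMIs against 7594 and 7174), 1.97% and 2.45% of mural cells and 2.41% and 1.59% of myelinating Schwann cells. Free RNA can give such UMIs, so the non-neuronal levels of the Asic genes are not read as expression; its part in them was not tested. In the other direction, satellite glia markers summed to between 1.52 and 7.42 UMIs per 10000 in the neuron classes, highest in TRPM8 neurons (7.42 and 5.11), against 176 and 193 in satellite glia.

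**Figure D4:**
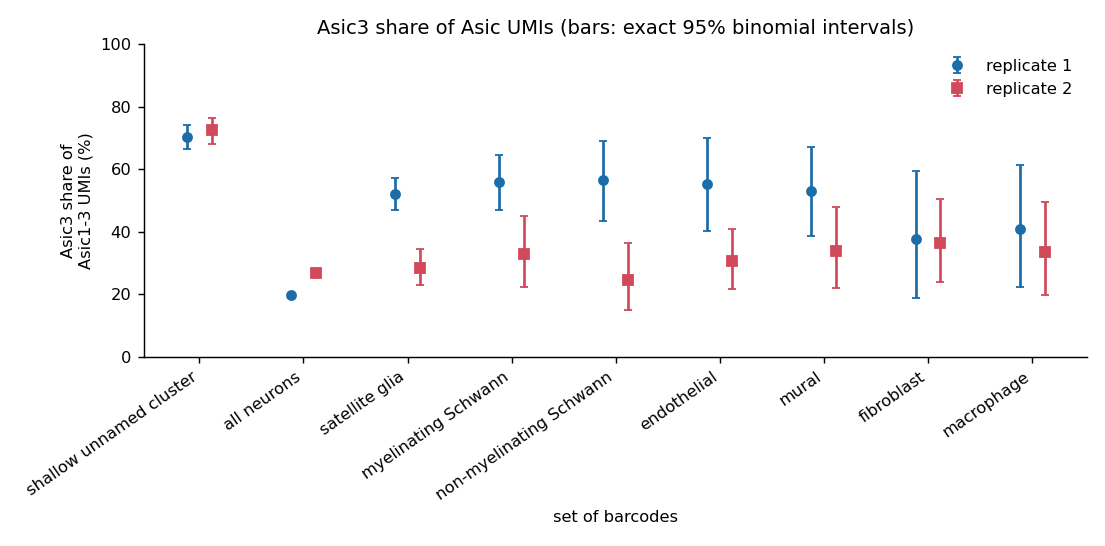
Asic3 share of the summed Asic1, Asic2 and Asic3 UMIs (vertical axis, percent) in a shallow unnamed cluster, in neurons and in 7 non-neuronal classes. Bars are exact 95% binomial intervals, for counting error only: the non-neuronal classes of replicate 1 lie between 37.5% and 56.5%, those of replicate 2 between 24.6% and 36.4%, and the shallow cluster near 70.3% and 72.4%.

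Gpr65 was a gene of macrophages here. Macrophages had 219 and 189 of its UMIs, 65.0% and 63.2% of all, from 189 and 284 cells, at 2.29 and 1.54 UMIs per 10000. T or NK cells had 0.734 and 0.532, neutrophils 0.750 and 0.394, monocytes 0.345 and 0.420 and B cells 0.144 and 0.155. Macrophages lay above the rest in both libraries, T or NK cells, neutrophils and monocytes each overlapped the next, and B cells were lowest of the immune classes.
Over both libraries 473 macrophages had 408 Gpr65 UMIs, against 11 in 10058 satellite glia, Schwann, endothelial, mural and fibroblast cells, a level 1056 times as high (exact 95% interval 584 to 2133, counting error only). Thinned to 1000 UMIs, 24.3% and 13.7% of macrophages had a Gpr65 UMI, against 0 of 2651 and 0 of 2183 satellite glia (upper 95% bounds 0.139% and 0.169%). Before thinning these shares were 56.6% and 39.1% of macrophages at median depths of 4894 and 4267 UMIs, and 0.0753% and 0.137% of satellite glia at 7594 and 7174.

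The 4 immune classes with enough cells (macrophages, monocytes, B cells and neutrophils) were higher for Gpr65 than the other 6 non-neuronal classes by 7.66 ± 0.62 (edgeR adjusted p = 1.10e-09), where 38.6% of all genes were called, 11.2% higher and 27.4% lower. Of the called genes 29.1% were higher there, against 47.3% with DESeq2 size factors, and the median over all genes was -0.37 and -0.085. The Gpr65 difference depends on the fit, since several of the other classes had 0 UMIs in a library, and it was 10.66 with replicate 2 left out. Asic1, Asic2 and Asic3 were not called there (0.69 ± 0.39, 0.58 ± 0.36 and -0.03 ± 0.47). With marker gates Asic1 (1.30) and Asic3 (0.90) were called higher, at levels where the share of UMIs from free RNA was not tested.
In neurons Gpr65 had 52 and 21 UMIs, 0.00780 and 0.00409 per 10000, and macrophages had 302 times that level (exact 95% interval 235 to 393). The contrast of neurons with the mean of all 11 other classes was -1.92 ± 0.49 (edgeR adjusted p = 0.00191). It was near 0 (-0.054) without replicate 2, as classes with no UMI enter that mean, and with marker gates it was -1.87 but not called. Between neuron classes Gpr65 lay from 0 to 0.0223 with each class overlapping the next, and NF neurons had none. The macrophage markers summed to 0.0693 and 0.0794 UMIs per 10000 in neurons, with none of the 7 at 0, against 166 and 137 in macrophages, and their part in the neuronal Gpr65 UMIs was not tested.

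Macrophages of the 2 libraries fell in different clusters. In replicate 1, 153 of 189 cells lay in a cluster led by the interferon-response genes Ifit2 and Ifit3, with 2.30 Gpr65 UMIs per 10000. In replicate 2, 137 and 141 of 284 cells lay in clusters led by Rcan1 and Il1a (1.65) and by Bmp2 and Atf3 (1.46). Within monocytes, the cluster led by Cd209a and Clec9a, genes of dendritic cells, had 0.824 and 0.659, against 0.101 and 0.332 in the cluster led by Fn1 and Ace. The remaining monocyte cluster held 19 of 58 and 20 of 93 cells. It was led by Mpo, Prtn3 and Elane, with Top2a, a marker of cycling cells, also among its leading genes. An unnamed cluster of 3 and 7 cells led by mast cell protease genes (Mcpt4, Tpsb2) had no Gpr65 UMI in replicate 1 and 11, from 5 cells, in replicate 2.

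Other proton-sensing receptors had separate places. Gpr4 was found in endothelial cells (0.705 and 0.769 UMIs per 10000) and at 0.119 and 0.379 in mural cells. Gpr132 was highest in T or NK cells (0.881 and 1.79) and monocytes (0.651 and 1.20), whose ranges overlapped, with 0.0626 and 0.351 in macrophages. The T or NK class, with 18 and 60 cells, was too small to be tested. Gpr132 was called higher in immune classes (9.40 ± 0.68, edgeR adjusted p = 1.30e-09, a size that depends on the fit because 3 of the other classes had no UMI), and Gpr4 was not called.

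**Figure D5:**
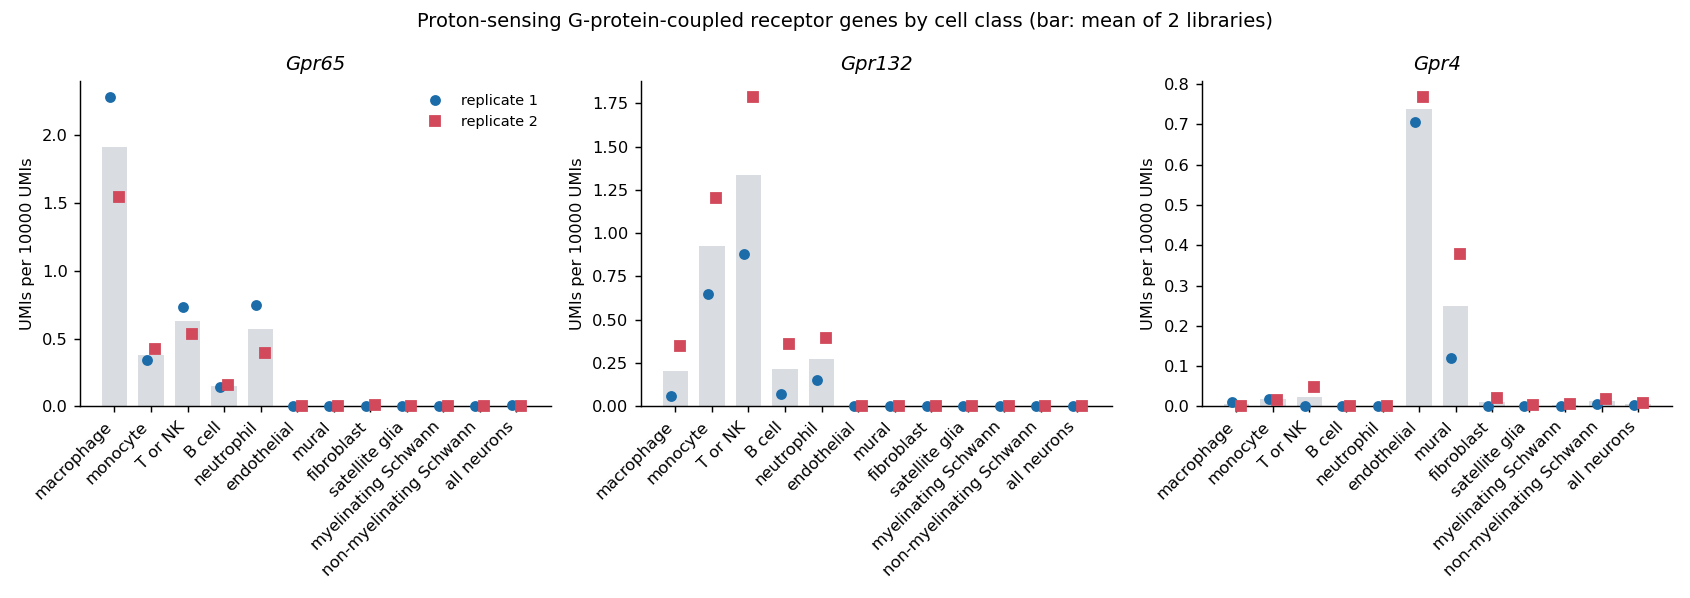
UMIs per 10000 UMIs of 3 proton-sensing receptor genes (vertical axes, linear, on different scales) in immune and other non-neuronal classes and in all neurons. Points are the 2 libraries and bars their mean: Gpr65 was highest in macrophages (2.29 and 1.54) and Gpr4 in endothelial cells (0.705 and 0.769). The mean of Gpr132 was highest in T or NK cells (0.881 and 1.79, from 18 and 60 cells), whose range overlapped that of monocytes.

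Among 5 tested genes of other acid-gated or acid-blocked channels, 2 were higher, 1 lower and 2 not called in A-fibre classes (median -0.40, against -0.00059 over all genes). Kcnk1 was higher by 2.05 ± 0.15, with 1.98 and 2.72 UMIs per 10000 in NF neurons, and Trpv1 was lower (-2.84 ± 0.20), at 0.249 and 0.114 in PEP-A neurons and 4.12 and 2.46 in PEP-C neurons. Kcnk3, which encodes a potassium channel closed by acid, was called higher in A-fibre classes (1.55 ± 0.32), although its highest levels were in PEP-C neurons (0.862 and 0.811). The contrast takes the mean of the logs over all C-fibre classes, and the part of each class in the call was not tested. Against NP2 and NP3, Kcnk3 was higher in peptidergic classes by 5.31 ± 0.50 (edgeR adjusted p = 3.28e-07), where Kcnk1 was also higher and Trpv1 lower.
Of 5 tested genes whose proteins bind acid-sensing channels, Lin7b was higher in A-fibre classes (2.13 ± 0.15) and Pick1 (-0.66 ± 0.14) and Stom (-1.30 ± 0.21) were lower, with a median of -0.14. Stomatin, the Stom product, is known to dampen Asic3 currents, and Stom was also lower in peptidergic than in itch-associated classes (-2.15 ± 0.17, edgeR adjusted p = 4.91e-08), with 0.878 and 1.06 UMIs per 10000 in NP3 neurons.
Of 9 tested genes of acid and lactate handling, 5 were higher and 1 lower in A-fibre classes (median 0.83, against -0.00059), among them the carbonic anhydrase gene Car2 (2.54 ± 0.21) and the anion exchanger gene Slc4a2 (1.73 ± 0.11). In peptidergic against itch-associated classes 6 were higher and 0 lower (median 1.13, against 0.04). No epithelial sodium channel subunit, and none of the 4 genes for peptides that act on these channels, passed the filter among neurons.

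Likeness of pattern was the Pearson correlation of log2(CPM + 1) across classes, taken as the lower of the values in the 2 libraries. Over 8 neuron classes and 7852 genes, Slitrk3 (0.96), Septin4 (0.95), Paqr7 (0.95), Chchd10 (0.95) and Nptn (0.95) were nearest to Asic1. Zfand3 (0.94), Dock11 (0.94), Trarg1 (0.93), Kcnd1 (0.93) and Pknox2 (0.93) were nearest to Asic2, and Chst2 (0.96), Map2 (0.96), Clmp (0.95), 1110046J04Rik (0.94) and Creb5 (0.94) to Asic3. For Gpr65, over 19 classes and 11031 genes, Pik3cg, Cd84, Vav1, Cybb and Fcgr3 were nearest (0.95 to 0.96). With 8 points that share libraries and depths, such values arise readily and are descriptions only.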

How the data were processed

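The deposited values were UMI counts per gene and barcode, one matrix with its gene and barcode lists for each library; the 3 files of a library were joined by position. Per the submitters' processing notes the authors used CASAVA 1.8, Cell Ranger 5.0.1 and mm10; their annotation release is not stated there. The coordinates printed are those of GENCODE release 21 (GRCm38). Barcodes needed 500 detected genes and a mitochondrial share below 20%. The doublet caller's own threshold marked 1 and 0 cells and had not worked, so the 555 and 1020 top-scoring cells were removed (0.8% per 1000 cells). Clusters (scanpy 1.11.5, resolution 1, and 1.5 for neurons, 38 listed genes left out) were named from 23 marker lists where at least 3 markers were raised. Shallow clusters with no marker of their class among the 10 leading genes were left unnamed. Rules for immune cells and for clusters led by another class's marker were refined after seeing the data. Only classes with at least 20 cells in both libraries were tested.

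UMIs were summed per class and library and tested with edgeR 4.0.16 (R 4.3.3) quasi-likelihood fits with class and library terms and Benjamini-Hochberg adjustment, 16 sums with 7 residual degrees of freedom for neurons and 24 with 11 for all cells. The fits were also run on simulated counts with a common dispersion and no library effect. Apart from genes changed on purpose, all classes there had the same mean profile, so that run says little about these data. The library term is a sequencing library and not a pairing of animals. Alternatives were DESeq2 1.42.0 size factors, library totals, no filter, no library term, doublets kept, marker gates, a coarser clustering, shallow neurons or small classes left out, and each library left out. Intervals are exact (Poisson or Clopper-Pearson, 95%) and cover counting error only. Members, gene lists and tests were chosen with earlier results of these data known. Of the list genes, those named passed the test with the largest fold, up to 4 a direction, at 10 CPM or more; a few are given as levels, and some list genes are not reported here.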

Additional observations from a re-analysis of the deposited data

Results flagged for a closer look

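Barcodes outside every named class held UMIs of 4 members above the limit of 3 counts. No main comparison used those outside the neuronal clusters. The unnamed neurons entered only the comparison of all neurons with non-neuronal classes. In the unnamed barcodes outside the neuronal clusters, over both libraries, Asic3 had 0.678 UMIs per 10000, Asic2 0.268, Asic1 0.185 and Gpr65 0.0428. Most of the Asic3 UMIs there, 393 of 432 in replicate 1 and 333 of 502 in replicate 2, came from a cluster of 1135 and 341 barcodes with medians of 1010 and 1759 UMIs. It was led by Trappc3l, Syt2 and Nme7, with Asic3 and Nefh also among its 10 leading genes, and had 1.37 and 2.42 Asic3 UMIs and 0.341 and 0.568 Asic1 UMIs per 10000. A second shallow cluster, of 124 and 1684 barcodes led by Scn11a and Gal, had 0.558 and 0.491 for Asic3.

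In the unnamed neurons, over both libraries, Asic2 had 0.659 UMIs per 10000, Asic3 0.620, Asic1 0.269 and Gpr65 0.00790. Of their 771 Asic3 UMIs in replicate 2, 642 came from 71 cells of a cluster led by the collagen gene Col1a1 (2.22 per 10000), which held 2 cells in replicate 1. A cluster of 12 and 23 cells led by Penk, Calb1 and Rxfp1 had 0.697 and 0.567 Asic1 UMIs per 10000 and 0.0139 and 0.0347 for Asic3.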

How the results depend on the processing

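DESeq2, no filter on low counts, doublets kept, the coarser clustering and leaving out neurons under 10000 UMIs left every member result on its side of the threshold and every called one with its direction. With marker gates Asic3 in immune classes turned to 0.90 (adjusted p = 0.0493), Asic3 in NP3 to 0.57, Asic1 in immune classes rose to 1.30, Asic2 in A-fibre classes fell to 0.24, and the Gpr65 difference of neurons, -1.87, had an adjusted p of 1; over 50 results gates lost 5 calls, gained 2 and reversed 2, and the cause was not tested. Asic2 in peptidergic against itch-associated classes was not called with library totals (-0.34, adjusted p = 0.127) or without the replicate block (-0.41, adjusted p = 0.107); the block changed no other call. Library totals moved the median of all genes to -0.22 for NP1, -0.16 for NP2, 0.16 for TRPM8 and 0.46 for neurons against non-neuronal classes (0.28 with composition factors), where DESeq2 gave -0.31 and marker gates -0.11. As means over cells, Asic1 in NF was 0.921 (0.603 from sums) and Asic3 in PEP-A 1.77 (1.23). Without classes under 50 cells, 8 of 9 remaining class tests were called, and the A-fibre and peptidergic contrasts could not be fitted. Of all 13257 genes in that fit, 2842 were called higher and 2891 lower for NP1. The counts were 3016 and 2636 for PEP-C and 2770 and 2321 for TH.

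With either library left out there is no test. Differences then ranged, for A-fibre classes, from 2.56 to 3.69 (Asic1), 0.20 to 0.79 (Asic2) and 4.26 to 4.78 (Asic3); for peptidergic classes, from 3.86 to 5.87, -0.46 to -0.36 and 5.19 to 7.62; for neurons, from 1.15 to 1.67, 2.11 to 3.73, 1.88 to 1.92 and, for Gpr65, -2.38 to -0.054; for immune classes, from 0.66 to 0.74, -0.057 to 0.67, -0.24 to 0.10 and 7.41 to 10.66. With 27 to 61 cells a library in 5 of the neuron classes, few cells set those levels.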
